A study of Schizosaccharomyces pombe with 2 samples.

Results

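Genes for the uptake and storage of amino acids, peptides and nucleobases were followed in *sgo2*Δ and wt cells of *S. pombe*. A list of 10 gene names was searched by exact symbol in the annotation of the array, and 9 of the 10 were found, out of 2896 genes that a probe set named alone. They were *cat1*, *isp5*, *per1* and *put4*, which encode amino acid permeases, the vacuolar transporter genes *fnx1* and *fnx2*, the uracil permease gene *fur4*, the oligopeptide transporter gene *isp4*, and *aap1*. The methionine permease name *mup1* matched no probe set and was not analysed here. The probe set annotated as *aap1* belongs to the gene now named *ape4*, for which *aap1* is an older synonym. Its product is known as an aspartyl aminopeptidase, an enzyme that removes residues from peptides. It is not a permease, and values are therefore also given for the 8 transporter genes without it.

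The *sgo2*Δ cells were of strain JP2247, which lacks the *sgo2* gene, and the wt cells of strain JK107. Both strains are of the *h*- mating type and were growing exponentially at 32 °C in YES, a rich medium made from yeast extract. Each strain was represented by 1 GeneChip array, hybridized with biotin-labelled cRNA made from poly(A) RNA. The differences therefore have no replicate check, and no p-values were computed here. The paper's own change P-values from GCOS were not used. The effect of the deletion cannot be told apart from other differences between these strains or cultures. The deposited signals are linear intensities after scaling by the authors. *sgo2* had a signal of 2.81 in *sgo2*Δ and 581.5 in wt cells, at least 5.82-fold lower against the signal of 100 used here as a floor. The median signal of all *S. pombe* probe sets was 1477 in *sgo2*Δ and 1309 in wt cells, and 2793 genes reached a signal of 100 on at least 1 array. The log2 ratio is that of *sgo2*Δ over wt throughout. Its median was 0.13 over the 2715 genes more than 200 kb from the telomeres of chromosomes 1 and 2 or on chromosome 3 (*sgo2* and the 9 genes left out), and 84.7% of these genes lay above 0. A ratio near 0.13 is therefore the ordinary one on this pair of arrays.

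Fission yeast takes up amino acids through permeases in the plasma membrane, and keeps a reserve of basic and other amino acids in the vacuole. On a good nitrogen source many permease genes are kept at a low level by TORC1, the nutrient-sensing kinase complex that contains Tor2, and are transcribed more strongly when nitrogen runs short, in part through the GATA factor Gaf1. The Tsc1-Tsc2 complex, which acts upstream of TORC1 through the small GTPase Rhb1, is needed for normal amino acid uptake. Sgo2 binds subtelomeres, and some of these genes lie toward chromosome ends, which raises the question of how far into the flanking chromosome the deletion of *sgo2* changes transcript levels.

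In *sgo2*Δ cells, 0 of the 9 genes were raised 2-fold or more and 0 were lowered 2-fold or more. Over all 2793 genes the same rule called 0.537% higher and 0.0358% lower. With a threshold of 1.5-fold the count was again 0 of 9 in either direction, against 1% of all genes higher and 0.107% lower. At these background rates, counts of 0 among 9 genes are not a result about these genes. The log2 ratios ran from 0.0025 (*isp4*) to 0.47 (*per1*), with a median of 0.16, or 0.21 without *aap1*, and 7 of 9 lay above 0.13. The median over all 2793 genes was 0.13. Quantile normalization of both arrays turned the median to -0.014 over the 8 of these genes that still reached 100 (-0.018 with *isp5*), and that of the genes more than 200 kb from the telomeres to -0.019.

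**Figure D1:**
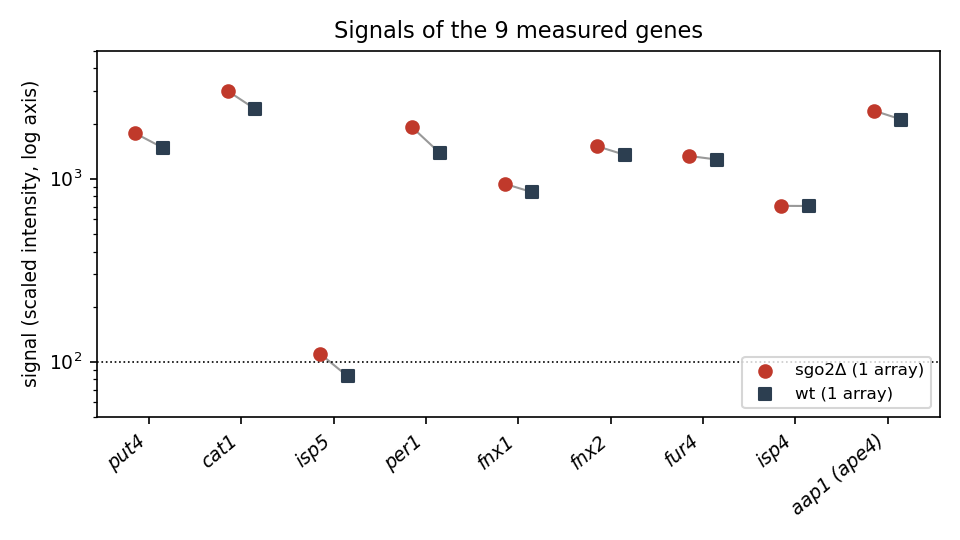
Signal of each of the 9 genes on the *sgo2*Δ array (circles) and the wt array (squares), on a logarithmic axis of scaled intensity. The dotted line marks a signal of 100, and each point is 1 array with no error bar. The gap within a pair is widest for *per1* (1.38-fold), and *isp5* is the only gene with a wt signal under 100 (83.3).

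Among the plasma membrane permeases, *per1* had the largest ratio. Its signal was 1906 in *sgo2*Δ and 1380 in wt cells, a ratio of 1.38 (log2 0.47). The gene lies 1847 kb from *tel1R*, far from any subtelomere. Its distance from the centromere, the other site where the paper finds Sgo2, was not measured here. Of the 2793 genes, 48 had a larger ratio. Among the 200 genes over 200 kb from the telomeres that were nearest to *per1* in signal, all but the lowest and the highest 2.5% had log2 ratios between -0.098 and 0.38, and 1 of the 200 exceeded *per1*. It was the only one of the 9 genes to lie outside the range of genes of like signal. By construction that range leaves out 2.5% of genes at each end, and *per1* is the largest of the 9. A count of 1 of 9 is therefore not a result about these genes. The nearest genes with a probe set did not share the ratio of *per1*. The 3 on each side, among them *lys1* of lysine biosynthesis (0.16), had log2 ratios between 0.057 and 0.18. Those on the left lay 6.06 to 10.5 kb from *per1*, but those on the right 43.3 to 49.5 kb from it. What lies in the gap on the right was not examined, so the genes beyond it are a weaker local comparison. After centring on the genes over 200 kb the log2 ratio of *per1* was 0.34, and after quantile normalization it was 0.29, with 36 genes above it.

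The next 3 permease genes by measured ratio, *isp5*, *cat1* and *put4*, all lie on the right arm of chromosome 1, between 100 and 200 kb from *tel1R*. Distances were taken from gene midpoints of the assembly ASM294v3 with the equations of the methods, and hold as far as that assembly matches the one used there. *isp5*, named for its induction during sexual differentiation, lies 130.1 kb from the telomere. *cat1*, whose product takes up cationic amino acids such as arginine and lysine, lies 107.5 kb from it. *put4*, which encodes a permease of the proline permease type, lies 103.7 kb from it, with 1687 bases between the spans of *cat1* and *put4* and no other coding gene there.

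The signal of *put4* was 1769 in *sgo2*Δ and 1474 in wt cells, a ratio of 1.20 (log2 0.26). That of *cat1* was 3017 in *sgo2*Δ and 2398 in wt cells, a ratio of 1.26 (log2 0.33). Both values lay within the range of the 200 genes nearest in signal, which reached up to 0.38 for *put4* and 0.35 for *cat1*. Of those 200 genes, 39 exceeded *put4* and 8 exceeded *cat1*. The neighbouring pair thus differed by 0.069 on the log2 scale, which is smaller than the SD of log2 ratios among genes of like signal (0.10 for *cat1* and 0.12 for *put4*).

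*isp5* was dim. Its signal was 110.8 in *sgo2*Δ and 83.3 in wt cells, a measured ratio of 1.33 (log2 0.41), or at least 1.11 with the wt signal set to 100. Dim genes spread more widely, and all but the lowest and the highest 2.5% of the 200 genes nearest in signal had log2 ratios between -0.40 and 0.62, with 20 of them above *isp5*. After quantile normalization its signals were 96.0 in *sgo2*Δ and 97.4 in wt cells, both under 100, with a log2 ratio of -0.022. The direction of *isp5* therefore depended on the scaling, whereas *per1*, *cat1* and *put4* stayed above 0 in each scaling tried.

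**Figure D2:**
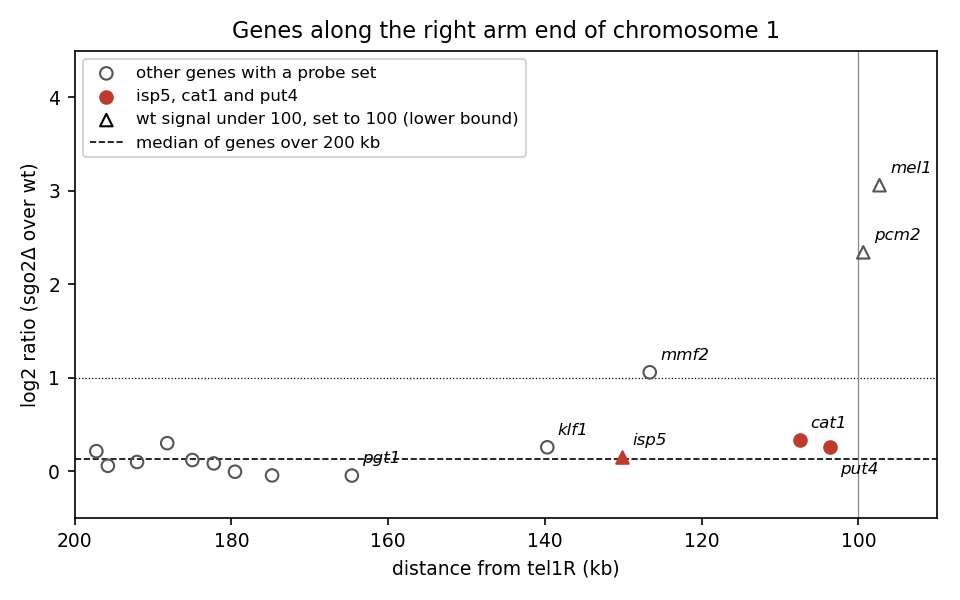
Log2 ratio (*sgo2*Δ over wt) of every named gene with a probe set within 200 kb of *tel1R*, against distance from that telomere in kb, with the telomere to the right. Filled symbols are *isp5*, *cat1* and *put4*, open symbols are other genes, the dashed line is the median of genes over 200 kb (0.13), the dotted line is 2-fold and the vertical line is 100 kb. Triangles are genes with a wt signal under 100, drawn as lower bounds with that signal set to 100. *put4* and *cat1* (0.26 and 0.33) stand next to *pcm2* and *mel1* (at least 2.34 and 3.06), which lie inside 100 kb.

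The genes beside these 3 differed widely in ratio. On the telomere side of *put4*, the nearest gene with a probe set was *pcm2*, which encodes a protein-isoaspartate methyltransferase and lies 99.4 kb from *tel1R*. Its signal was 507.1 in *sgo2*Δ and 68.7 in wt cells, at least 5.07-fold higher. The midpoints of *put4* and *pcm2* are 4.28 kb apart. The following gene, *mel1* of α-galactosidase, lies 97.3 kb from the telomere and had a signal of 834.2 in *sgo2*Δ and 40.8 in wt cells, at least 8.34-fold higher. With wt signals under 100 set to 100, the log2 ratio was at least 2.34 at *pcm2* and at least 3.06 at *mel1*, against 0.26 at *put4*. The wt signal of *mel1* lay below the highest signal of the probe sets with no target (47.7 in wt), and whether this bears on its ratio was not tested.

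On the centromere side, *cat1* was followed at 19.1 kb by *mmf2*, which encodes a protein of the YjgF/RidA family. *mmf2* had a signal of 975.6 in *sgo2*Δ and 468.6 in wt cells, 2.08-fold higher, and lies 126.6 kb from the telomere. It is the nearest gene with a probe set to *isp5*, at 3.49 kb. The nearest on the other side of *isp5*, *klf1*, which encodes a zinc finger factor, had a signal of 991.6 in *sgo2*Δ and 830.9 in wt cells (log2 0.26). *put4* and *cat1* therefore stood between genes with larger ratios on both sides. From 140 kb to 200 kb, 9 genes had log2 ratios between -0.048 and 0.30 with a median of 0.082. Of the 35 coding genes annotated between 100 and 200 kb from *tel1R*, 14 had a probe set that named them, and the rest were not followed here.

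As a group, *isp5*, *cat1* and *put4* had a median log2 ratio of 0.33 (range 0.26 to 0.41) by measured signals, or 0.26 (range 0.15 to 0.33) with the wt signal of *isp5* set to 100. The 54 other genes between 100 and 200 kb from a telomere of chromosome 1 or 2 had a median of 0.16 and a range of -0.19 to 2.46. In this span 7.02% of 57 genes were at least 2-fold higher and 0% at least 2-fold lower, and none of these 3 genes was among those called. The 6 of the 9 genes farther than 200 kb had a median of 0.16 (range 0.0025 to 0.47), or 0.15 for 5 genes without *aap1*. The largest ratio of all, that of *per1*, belonged to this distant set, so the 2 sets overlapped. The medians of the near and the distant genes both shrank after centring, to 0.20 and 0.028, and after quantile normalization, to 0.13 (without *isp5*, which was then under 100) and -0.018. The 0.13 thus rests on *put4* (0.095) and *cat1* (0.16) alone, and *isp5*, at -0.022, lay below both.

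The vacuolar transporters had nearly equal ratios. *fnx1* encodes a transporter of the major facilitator superfamily that cells need to enter quiescence under nitrogen starvation, and Fnx2 is its close relative. Both carry amino acids such as lysine into the vacuole. *fnx1* had a signal of 938.5 in *sgo2*Δ and 843.4 in wt cells (log2 0.15), and *fnx2* had 1506 in *sgo2*Δ and 1351 in wt cells (log2 0.16). In the ranges of genes of like signal, 94 of 200 genes exceeded *fnx1* and 104 of 200 exceeded *fnx2*, so both stood at the middle. With quantile normalization they had log2 ratios of -0.0096 and -0.019.

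The uracil permease gene *fur4* had a signal of 1331 in *sgo2*Δ and 1273 in wt cells (log2 0.064), below the median of 0.13. Its product brings uracil into the cell. On its left lie *urg1*, *urg3* and *urg2*, genes of the uracil-regulatable cluster, which were singled out after their values were seen. They had signals of 3086, 2914 and 3592 in *sgo2*Δ and 2905, 2989 and 3754 in wt cells. Their log2 ratios were 0.088, -0.037 and -0.064. On its right the 3 nearest genes with a probe set were *mam3*, *scm3* and *nxt1*, also singled out afterwards. They had signals of 173.8, 564.0 and 2040 in *sgo2*Δ and 191.7, 481.8 and 1436 in wt cells, or log2 ratios of -0.14, 0.23 and 0.51. The neighbours of *fur4* thus lay on both sides of the median.

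*isp4*, a member of the oligopeptide transporter family that was isolated, like *isp5*, as induced during sexual differentiation, had a signal of 710.5 in *sgo2*Δ and 709.3 in wt cells (log2 0.0025). Of the 2793 genes, 2351 had a larger ratio. After centring, *isp4* (-0.12) and *fur4* (-0.063) lay below 0 and the other 7 genes above it. The aminopeptidase gene listed as *aap1* had a signal of 2355 in *sgo2*Δ and 2105 in wt cells (log2 0.16), and 114 of the 200 genes of like signal exceeded it.

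**Figure D3:**
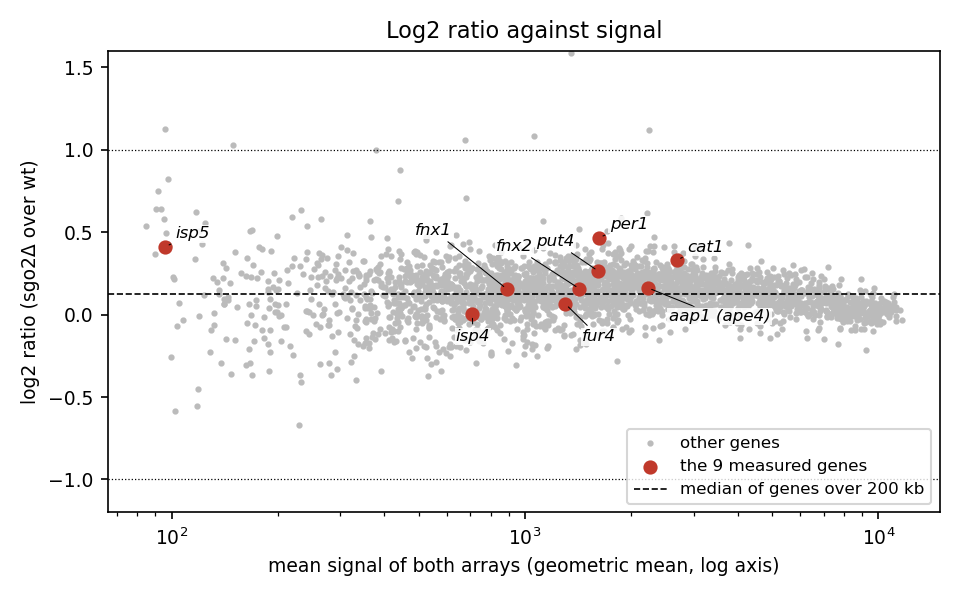
Log2 ratio (*sgo2*Δ over wt) against the geometric mean signal of both arrays (logarithmic axis) for the 9 genes (red) and 2774 other genes (grey) that reached a signal of 100, with 10 genes beyond the vertical axis not drawn. The dashed line is the median of genes over 200 kb (0.13) and the dotted lines are 2-fold. *per1* (0.47) stands at the upper edge of genes of its signal, and the cloud widens to the left, where *isp5* lies.

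By measured ratio the order was *per1*, *isp5*, *cat1*, *put4*, *aap1*, *fnx2*, *fnx1*, *fur4* and *isp4*. All 8 steps between neighbours in this order (for instance 0.0023 between *fnx2* and *fnx1*) were smaller than the SD of the 200 genes nearest in signal to either gene. The place of *isp5* rests on its measured wt signal of 83.3. With that signal set to 100 its log2 ratio became 0.15, a lower bound that lies under the values of *aap1*, *fnx2* and *fnx1*. After quantile normalization the log2 ratio of *isp5* was -0.022, so its place in the order is not settled. The other 3 amino acid permeases of the plasma membrane had log2 ratios of 0.26 to 0.47, while the 4 transporters of other kinds ran from 0.0025 to 0.16. Outside the 9 genes, 8 other amino acid, peptide, ammonium and urea transporters that reached 100 ran from -0.11 to 0.19. With so few genes and 1 array per strain, this order is a description only.

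The wider set of genes around nitrogen uptake was set beside these values. Of 20 listed names of other amino acid, peptide, ammonium and urea transporters, 9 had a probe set and 8 reached a signal of 100. None of the 8 changed 2-fold, and their median log2 ratio was 0.12, close to that of all genes. Over all genes 0.537% were called higher and 0.0358% lower. Counts of 0 in this list and in those below are near these shares, and are not a result about the lists. The highest was *aat1*, an amino acid transporter gene, with a signal of 3542 in *sgo2*Δ and 3110 in wt cells (log2 0.19). It lies 159.7 kb from a telomere. The lowest was *amt1*, an ammonium transporter gene, with 357.8 in *sgo2*Δ and 387.3 in wt cells (log2 -0.11). *pgt1*, the glutathione transporter gene that lies 164.6 kb from *tel1R* on the same arm as *isp5*, had a log2 ratio of -0.048. The permease gene *meu22* stayed under 100 on both arrays (69.3 in *sgo2*Δ and 31.7 in wt cells), and no ratio is given for it.

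Of 4 vitamin transporter genes measured, none changed 2-fold. The highest was the thiamine transporter gene *thi9*, with 559.6 in *sgo2*Δ and 429.1 in wt cells (log2 0.38), and the lowest was the pantothenate transporter gene *liz1* (log2 0.075). Hexose transporters were measured as a further family. Among 6 of them with a signal of 100 or more, *ght3* and *ght7*, both within 100 kb of a telomere, rose at least 5.42-fold and 2.55-fold, and *ght8* had the lowest ratio (log2 0.066). Over all genes 0.537% were called higher, and of the 14 genes within 100 kb of a telomere 11 were.

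The regulators of the permeases showed small ratios in both directions. Of 24 genes of TOR signalling and nitrogen control that reached a signal of 100, none changed 2-fold, and their median log2 ratio was 0.11. The highest was *npr2*, which encodes a subunit of the complex that restrains TORC1 when amino acids are scarce (2158 in *sgo2*Δ and 1740 in wt cells, log2 0.31). The lowest was the GATA factor gene *gaf1* (632.4 in *sgo2*Δ and 734.9 in wt cells, log2 -0.22). *tor2* had a log2 ratio of -0.0099, *tsc1* of 0.10, *tsc2* of 0.28 and *rhb1* of 0.19. *pub1*, which encodes the ubiquitin ligase that acts on amino acid permeases, had 1361 in *sgo2*Δ and 1513 in wt cells (log2 -0.15). *isp7*, whose product regulates amino acid uptake, had a log2 ratio of 0.055.

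The genes of enzymes that use or make amino acids had small ratios as well. Of 7 genes of ammonium assimilation and amino acid breakdown, none changed 2-fold (median log2 ratio 0.078). The extremes were *gdh2*, a glutamate dehydrogenase gene (0.22), and *glt1*, the glutamate synthase gene (-0.062). Of 45 genes of amino acid biosynthesis, none changed 2-fold, against 0.537% of all genes called higher and 0.0358% lower. The median of the 45 was 0.10, between *arg1* (-0.10) and *tyr1* (0.25). The log2 ratio of *per1* lay above that of every gene in the lists of biosynthesis, breakdown, nitrogen control and other nitrogen transporters that reached a signal of 100. This is the ordering on 1 pair of arrays, and was not tested.

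**Figure D4:**
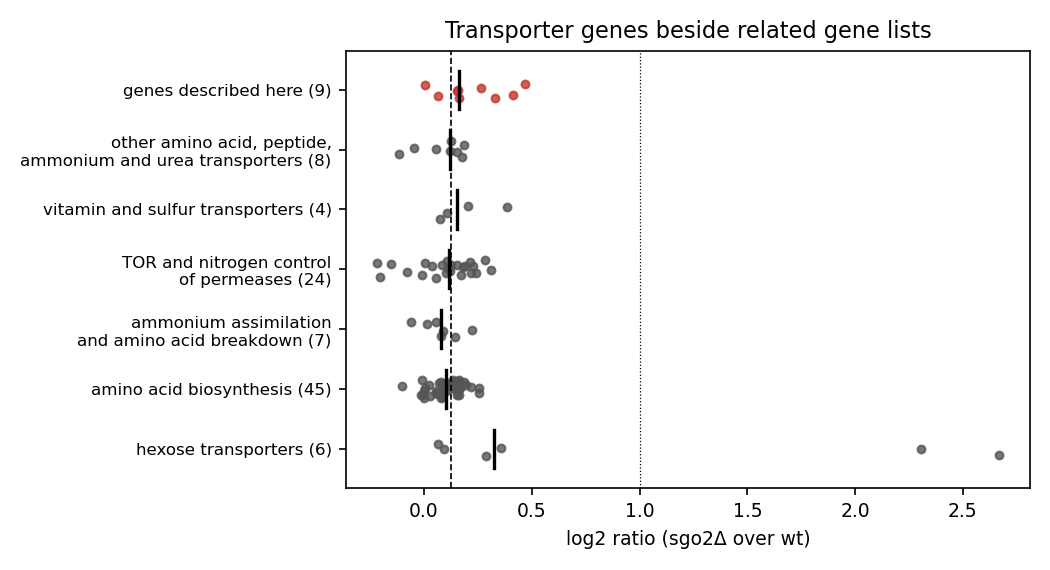
Log2 ratio (*sgo2*Δ over wt) of each gene that reached a signal of 100, for the 9 genes described here (red) and 6 related gene lists (grey), with the number of genes in brackets. Thick bars are medians, the dashed line is the median of genes over 200 kb (0.13) and the dotted line is 2-fold. Only *ght3* and *ght7* among the hexose transporters pass the 2-fold line.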

How the data were processed

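Biotin-labelled cRNA made from poly(A) RNA of *sgo2*Δ and wt cells was hybridized to GeneChip Yeast Genome 2.0 arrays, 1 array per strain. The deposited values are signal intensities of GCOS 1.4, scaled by the authors with default settings and with *S. cerevisiae* probe sets masked (5748 of 10928 rows are 0 on both arrays, so both column medians are 0). The target of the scaling is not given in the sources used here. The number of arrays limits the precision.

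Probe sets naming 1 gene (2914) were joined by gene identifier to the gene table of ASM294v3, and log2 signals were averaged per gene. Each of the 9 genes had 1 probe set. In 8 genes with several probe sets at a signal of 100 or more, log2 ratios of one gene differed by a median of 0.043 (at most 0.33). A gene was called at 2-fold with the brighter signal at 100 or more. The spread at a given signal is that of the 200 nearest genes over 200 kb from the telomeres, without *sgo2*.

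The named genes are all 9 genes, *sgo2*, the extremes of each list and the nearest neighbours of *isp5*, *cat1* and *put4*. Other genes, among them *lys1*, the *urg* genes, *mam3*, *scm3*, *nxt1*, *mel1*, *pgt1*, *meu22*, *ght7* and further regulators, were named after their values were seen. The genes and lists were chosen with earlier results of these data known. From the lists, 7 names were removed because the symbol belongs to another kind of gene. Alternatives changed the scaling, the pseudocount, the floor, the fold, the probe set and the distance. Protein and promoter sequences were not analysed here. The software was pandas 2.3.3, numpy 2.4.6 and matplotlib 3.10.9 under Python 3.11.15.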

Additional observations from a re-analysis of the deposited data

How the results depend on the processing

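No paired analysis was possible because there was only 1 array for either strain, which also left no replicate to omit. In all settings run, 0 of the 9 genes rose or fell 2-fold (also at 1.5-fold, with a floor of 50 or none, and, chosen after seeing the data, without *aap1*, without *isp5* or with wt signals under 100 set to 100). Over all genes as deposited, 0.537% were called higher and 0.0358% lower, or 1% and 0.107% at 1.5-fold. At these shares the counts of 0 are not a result about the 9 genes. The lower floors could not change them, because all 9 genes reached 100 as deposited. The median log2 ratio was 0.035 over the 9 genes after centring and -0.014 over 8 of them with quantile normalization. For the genes 100 to 200 kb from a telomere the median was 0.20 after centring, 0.13 with quantile normalization and 0.25 with a pseudocount of 100, and for those farther away it was -0.018 with quantile normalization. Quantile normalization drops *isp5* under a signal of 100, and centring removes the shared shift of 0.13 by its construction. Otherwise the cause was not tested. All 9 genes lay above 0 as deposited, 7 after centring and 3 with quantile normalization (*per1*, *cat1* and *put4*). As deposited, 84.7% of the genes over 200 kb lay above 0 as well. Above the median of those genes were 7 of the 9 as deposited, 7 after centring and 6 with quantile normalization. After centring, the medians were -0.0047 for the other nitrogen transporters, -0.013 for nitrogen control, -0.049 for breakdown and -0.027 for biosynthesis. They were 0.028 for the vitamin transporters and 0.20 for the hexose transporters. With quantile normalization the median of the genes over 200 kb was itself -0.019. The list medians were then -0.069 for the other nitrogen transporters, -0.019 for nitrogen control, -0.040 for breakdown and -0.016 for biosynthesis. Those of the vitamin and hexose transporters were -0.015 and 0.15. Of 54 values of single genes under an alternative, 39 moved by less than the SD of genes of like signal and 15 by more. Many of the 39 could not move, because each gene had 1 probe set and reached 100 as deposited. A floor of 50, no floor and the brightest probe set thus left every ratio as it was. The 54 values leave out *isp5* with quantile normalization, whose log2 ratio of -0.022 was a move of 0.43, more than its SD of 0.26. The log2 ratio of *isp5* was 0.20 with a pseudocount of 100 and 0.15 with its wt signal set to 100. Signal over background limits *isp5*, whose signals lie near 100, while probe sets with no target reached 43.9 in *sgo2*Δ and 47.7 in wt cells.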
